A study of Mus musculus with 36 samples.

Results

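HoxC is 1 of the 4 mouse clusters of Hox genes, and the genes described here were its 9 members, Hoxc4, Hoxc5, Hoxc6, Hoxc8, Hoxc9, Hoxc10, Hoxc11, Hoxc12 and Hoxc13, chosen by name from the 24411 genes in the expression tables. The study cultured mesenchymal stem cells (MSCs) from 4 tissues of 8-week-old C57BL6/J mice, namely femoral bone marrow (fBM-MSCs), vertebral bone marrow (vBM-MSCs), adipose tissue (A-MSCs) and lung (P-MSCs). No gene was altered, and the cells of all 4 groups were seeded on collagen I in MesenCult medium with MesenPure and a Rock inhibitor and used within 3 passages. Marrow cells were freed by crushing the bone, and adipose and lung cells by mincing and collagenase. Isolation thus differed between marrow and the other tissues. RNA-seq libraries of fBM-MSCs (3), vBM-MSCs (2), A-MSCs (3) and P-MSCs (3) were analysed, and vBM-MSC replicate 3 was not used here. The 24 ATAC-seq samples, 6 per tissue, are 3 replicates per tissue, each listed under 2 run labels. They entered as 1 pooled peak list per tissue. The 4 tissues were taken from the same 3 mice, but no source links a library to a mouse. Each group was therefore a cultured population from a few animals, characterised by flow cytometry. The libraries and lists of the 4 groups are called femoral, vertebral, adipose and lung below.

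Hox genes encode homeodomain transcription factors that give cells a position along the body axis. Within a cluster they lie in the order in which they act: genes of low number are used from the neck and upper trunk downward, and genes of high number act in the lower trunk, tail and limbs. In adult mesenchymal cells this pattern is known to persist as a memory of where the cells came from. Hox proteins bind DNA together with cofactors, and silent clusters are known to be covered by Polycomb proteins.

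The cluster lies on chromosome 15 of mm10 (GRCm38), on the plus strand, between the Hoxc13 start at 102921131 and the Hoxc4 end at 103036852. Hoxc13 stands first and Hoxc4 last. Each gene is placed by the curated RefSeq transcript that the expression tables name, 1 per gene. The sequences below are 201-bp windows centred on ATAC-seq summits, from the GRCm38 reference, plus strand. They are shown because the lists of the 4 tissues differed there, or, for the last, because all 4 lists held it. Capitals mark matches to 3 of 7 motifs searched on both strands, AP-1 (TGANTCA), RUNX (TGTGGT) and a core motif of CTCF. No match in these windows overlapped another. The other motifs had no match in these windows; they were AGATAA for Gata factors, GGATTA for Pitx factors, TTTATNG for posterior Hox factors and TGATTNAT for a Hox factor with its cofactor. No window overlaps an annotated exon.
Upstream of Hoxc13, chr15:102920752-102920952: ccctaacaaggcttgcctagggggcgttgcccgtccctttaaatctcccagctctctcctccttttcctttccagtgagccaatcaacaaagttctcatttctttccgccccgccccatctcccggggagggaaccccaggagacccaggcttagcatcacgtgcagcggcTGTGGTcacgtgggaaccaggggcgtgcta
Upstream of Hoxc11, chr15:102953668-102953868: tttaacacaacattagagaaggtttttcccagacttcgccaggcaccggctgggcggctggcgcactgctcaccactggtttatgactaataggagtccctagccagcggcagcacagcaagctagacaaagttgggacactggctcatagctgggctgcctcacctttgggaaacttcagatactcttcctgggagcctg
Far upstream of Hoxc10, chr15:102963777-102963977: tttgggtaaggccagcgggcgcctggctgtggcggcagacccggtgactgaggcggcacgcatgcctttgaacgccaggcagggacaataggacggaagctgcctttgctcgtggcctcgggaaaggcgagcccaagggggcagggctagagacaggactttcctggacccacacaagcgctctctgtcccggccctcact
Intron of Hoxc10, chr15:102969022-102969222: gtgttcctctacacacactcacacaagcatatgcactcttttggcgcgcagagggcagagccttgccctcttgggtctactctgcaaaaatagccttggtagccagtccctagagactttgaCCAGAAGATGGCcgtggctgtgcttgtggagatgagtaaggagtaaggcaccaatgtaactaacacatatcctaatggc
Downstream of Hoxc4, chr15:103041665-103041865: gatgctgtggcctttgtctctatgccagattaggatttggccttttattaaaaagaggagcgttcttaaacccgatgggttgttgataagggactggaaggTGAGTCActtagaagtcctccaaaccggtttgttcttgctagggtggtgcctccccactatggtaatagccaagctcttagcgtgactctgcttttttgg
Between Hoxc8 and Hoxc6, chr15:102999292-102999492: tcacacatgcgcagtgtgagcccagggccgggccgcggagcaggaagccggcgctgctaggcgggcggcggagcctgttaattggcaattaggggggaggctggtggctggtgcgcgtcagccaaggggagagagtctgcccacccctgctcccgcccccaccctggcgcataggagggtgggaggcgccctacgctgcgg

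MSCs from the femur, the vertebrae and adipose tissue all expressed HoxC, but not the same end of it, and MSCs from the lung expressed almost none of it. In fBM-MSCs Hoxc10 had by far the highest level, followed by Hoxc6 and Hoxc13 (mean TPM 19.4, 8.21 and 7.27). In vBM-MSCs and A-MSCs it was carried by Hoxc6 and Hoxc8. Levels are given as TPM, a share of all transcripts scaled for transcript length, so that genes can be compared. In bulk RNA, fewer cells expressing a gene and less RNA per cell cannot be told apart.

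The summed TPM of the 9 genes was 48.9, 53.3 and 43.4 in the fBM-MSC libraries, 45.1 and 62.1 in the vBM-MSC libraries, 50.4, 49.1 and 39.3 in the A-MSC libraries, and 1.51, 1.20 and 1.62 in the P-MSC libraries. The first 3 tissues overlapped in this sum, and the P-MSCs lay far under them. The make-up of the sum was another matter. Hoxc10, Hoxc11, Hoxc12 and Hoxc13 together made 56.5%, 60.0% and 62.3% of the summed TPM in fBM-MSCs. Their share was 2.39% and 7.80% in vBM-MSCs, 7.56%, 6.68% and 15.4% in A-MSCs, and 0 in every P-MSC library. Hoxc6 and Hoxc8 together made between 20.04% and 25.3% in the femoral libraries, 74.5% and 62.3% in the vertebral libraries, and between 48.9% and 61.6% in the adipose libraries. The femoral libraries thus did not overlap with the vertebral or the adipose libraries in either share.

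**Figure D1:**
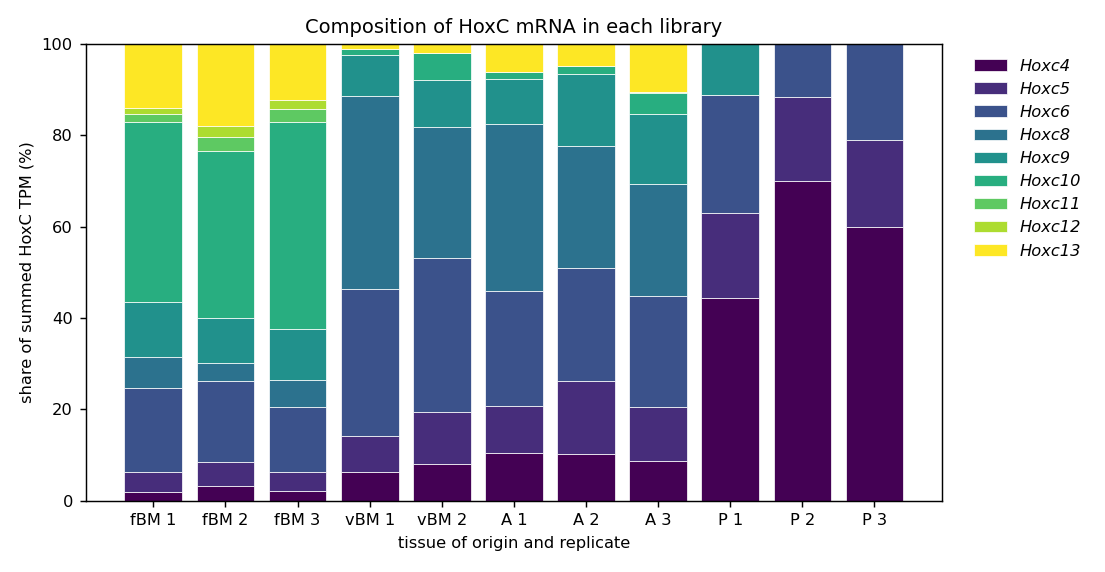
Share of each HoxC gene (%, y axis) in the summed HoxC TPM of each of the 11 libraries (x axis), stacked from Hoxc4 at the bottom to Hoxc13 at the top. The green to yellow top of the bars, Hoxc10 to Hoxc13, takes 56.5% to 62.3% in the fBM libraries and at most 15.4% elsewhere; the P bars divide a summed TPM of only 1.20 to 1.62.

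Hoxc10, a gene of the lumbar trunk and hindlimb, had the highest mean TPM of any member in any tissue. Its TPM was 19.3, 19.4 and 19.6 in the femoral libraries, 0.59 and 3.55 in the vertebral libraries, 0.69, 0.93 and 1.84 in the adipose libraries, and 0 in each P-MSC library. The femoral libraries were all high and nearly equal, and no library of another tissue came near them, while the vertebral libraries differed from each other several-fold. Hoxc10 was higher in fBM-MSCs than in vBM-MSCs, by 3.32 on the log2 scale (SE 0.67, adjusted p = 0.0129, edgeR's quasi-likelihood test, adjusted over 12509 genes after Benjamini and Hochberg). Without vBM-MSC replicate 1 this was 2.59 (adjusted p = 0.0375), and without replicate 2 it was 4.98 (adjusted p = 0.00262). Against A-MSCs it was 3.99 higher on the log2 scale (SE 0.59, adjusted p = 0.000627). Against P-MSCs, which had no count in any library, it was at least 875-fold higher, taking 3 counts over the group as the floor. The difference between vBM-MSCs and A-MSCs, 0.67 on the log2 scale (95% interval −0.69 to 2.03), did not pass the test.

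Hoxc13, the last gene of the cluster in body position and known for its role in hair and nail, had a TPM of 6.89, 9.57 and 5.35 in the femoral libraries, 0.49 and 1.23 in the vertebral libraries, 3.12, 2.35 and 4.09 in the adipose libraries, and 0 in each P-MSC library. Unlike Hoxc10, it placed the adipose libraries between the femoral and the vertebral ones, and the libraries of the 4 tissues did not overlap. It was higher in the femoral libraries than in the vertebral libraries by 3.13 on the log2 scale (SE 0.49, adjusted p = 0.00414) and lower in the vertebral libraries than in the adipose libraries at −2.02 (SE 0.47, adjusted p = 0.0128). Without vBM-MSC replicate 2 these were 3.81 and −2.71, and without replicate 1 the latter lost its call (adjusted p = 0.066). The difference between fBM-MSCs and A-MSCs was smaller, 1.11 (SE 0.39, adjusted p = 0.0446), and lost its call with the replicate number as a block, without replicate 1 or 2 of the fBM-MSCs and without replicate 1 or 2 of the A-MSCs (adjusted p up to 0.163). Over P-MSCs it was at least 426-fold higher in the femoral libraries, 51.4-fold in the vertebral libraries and 198-fold in the adipose libraries, on the same floor.

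Hoxc11 and Hoxc12, which stand between them, were found almost only in the femur. Hoxc11 had 7, 24 and 22 counts in the fBM-MSC libraries (TPM 0.79, 1.68 and 1.29), 1 count in all in the vertebral libraries, 2 in the adipose libraries and 0 in the lung libraries. Hoxc12 had 5, 16 and 12 counts in the fBM-MSC libraries (TPM 0.64, 1.27 and 0.79) and 0 in each of the other 8 libraries. Both lay below the filter on low counts and entered no main test. From the counts, Hoxc11 was 39.6-fold higher in the femoral libraries than in the vertebral libraries (95% exact counting interval 6.81 to 1593) and 30.5-fold higher than in the adipose libraries (8.03 to 258), intervals that cover counting error only. Hoxc12 was at least 8.22-fold, 12.7-fold and 14.4-fold higher in fBM-MSCs than in vBM-MSCs, A-MSCs and P-MSCs. When all 17496 genes with a count were tested by edgeR, which takes in the spread between libraries, Hoxc11 did not pass against vBM-MSCs (adjusted p = 0.269) or A-MSCs (0.111) and passed against P-MSCs (0.025). Hoxc12 passed in none of the 3 (adjusted p = 0.248, 0.0782 and 0.0643). A lower filter, a CPM (counts scaled to library size) of 0.2 in 2 libraries, let edgeR test 14496 genes. There Hoxc12 passed against A-MSCs (adjusted p = 0.0466) and P-MSCs (0.0381), but not against vBM-MSCs (0.157). Hoxc11 again passed against P-MSCs (0.0154) and not against vBM-MSCs (0.169) or A-MSCs (0.0616).

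Hoxc8, a gene of the mid trunk, placed the femoral libraries below the vertebral and adipose ones instead of above them. Its TPM was 3.41, 2.10 and 2.51 in the femoral libraries, 19.2 and 17.8 in the vertebral libraries, 18.5, 13.1 and 9.65 in the adipose libraries, and 0 in each P-MSC library. The vertebral and adipose libraries overlapped, and all of them lay above the femoral ones. Hoxc8 was lower in the femoral libraries than in the vertebral libraries, at −2.76 on the log2 scale (SE 0.32, adjusted p = 0.000846), and lower than in the adipose libraries, with −2.43 (SE 0.30, adjusted p = 0.000218). Between vBM-MSCs and A-MSCs the difference was 0.32 (95% interval −0.37 to 1.01) and did not pass. The ratio of the TPM of Hoxc10 to that of Hoxc8 was 5.65, 9.26 and 7.81 in the femoral libraries, 0.0308 and 0.199 in the vertebral libraries, and 0.0374, 0.0709 and 0.191 in the adipose libraries. Relative to P-MSCs, Hoxc8 was at least 147-fold higher in the femoral libraries, 1025-fold in the vertebral libraries and 818-fold in the adipose libraries.

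Hoxc6 acts in the thoracic region. Its TPM was 8.96, 9.49 and 6.19 in the femoral libraries, 14.5 and 20.9 in the vertebral libraries, 12.6, 12.2 and 9.59 in the adipose libraries, and 0.39, 0.14 and 0.34 in the lung libraries. The vertebral libraries were the highest, and the femoral and adipose ranges nearly met. Its log2 fold change between fBM-MSCs and vBM-MSCs was −1.05 (SE 0.31, adjusted p = 0.0442), a call lost under 11 of 19 alternatives, and that between fBM-MSCs and A-MSCs, −0.56 (95% interval −1.17 to 0.05), did not pass (adjusted p = 0.131). It was lower in P-MSCs than in every other tissue, by 4.90 (SE 0.35) against fBM-MSCs, 5.95 (SE 0.38) against vBM-MSCs and 5.45 (SE 0.36) against A-MSCs on the log2 scale, with adjusted p of 1.66e-06, 1.23e-06 and 4.33e-06.

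Hoxc9, which marks the passage from thoracic to lumbar trunk, was the member in which the femur, the vertebrae and adipose tissue were not told apart. Its TPM was 5.85, 5.23 and 4.92 in the femoral libraries, 4.01 and 6.47 in the vertebral libraries, 5.02, 7.67 and 5.99 in the adipose libraries, and 0.17, 0 and 0 in the lung libraries. The libraries of the first 3 tissues overlapped throughout, and 1 P-MSC library held all 7 counts of that tissue. The log2 fold change was 0.09 between fBM-MSCs and vBM-MSCs (95% interval −1.20 to 1.37) and −0.30 between fBM-MSCs and A-MSCs (−1.44 to 0.85), and both intervals reach past a 2-fold difference. Hoxc9 was higher than in P-MSCs in all 3 (adjusted p = 3.61e-05, 7.81e-05 and 0.000105).

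Hoxc4 and Hoxc5, of the neck and upper trunk, were at low to middle levels. The TPM of Hoxc5 was 2.11, 2.78 and 1.78 in the femoral libraries, 3.59 and 7.07 in the vertebral libraries, 5.19, 7.89 and 4.57 in the adipose libraries, and 0.28, 0.22 and 0.31 in the lung libraries. The TPM of Hoxc4 was 0.94, 1.72 and 0.97 in the femoral libraries, 2.83 and 4.99 in the vertebral libraries, 5.32, 5.0 and 3.46 in the adipose libraries, and 0.67, 0.84 and 0.97 in the lung libraries. Both were higher in every vertebral and adipose library than in any femoral one. The log2 fold change of Hoxc4 in fBM-MSCs was −1.63 against vBM-MSCs (SE 0.41, adjusted p = 0.0242) and −2.00 against A-MSCs (SE 0.38, adjusted p = 0.00168), and that of Hoxc5 was −1.20 (SE 0.34, adjusted p = 0.0402) and −1.48 (SE 0.31, adjusted p = 0.00319). The first of these Hoxc5 calls was lost under 11 of 19 alternatives. Hoxc4 was the highest member in P-MSCs, and there its libraries overlapped with those of the femur. Between fBM-MSCs and P-MSCs its log2 fold change was 0.67 (95% interval −0.17 to 1.503, adjusted p = 0.173), so that it was the only member tested without a call in that comparison. Hoxc5 was higher in fBM-MSCs than in P-MSCs by 3.14 (SE 0.35, adjusted p = 3.03e-05).

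**Figure D2:**
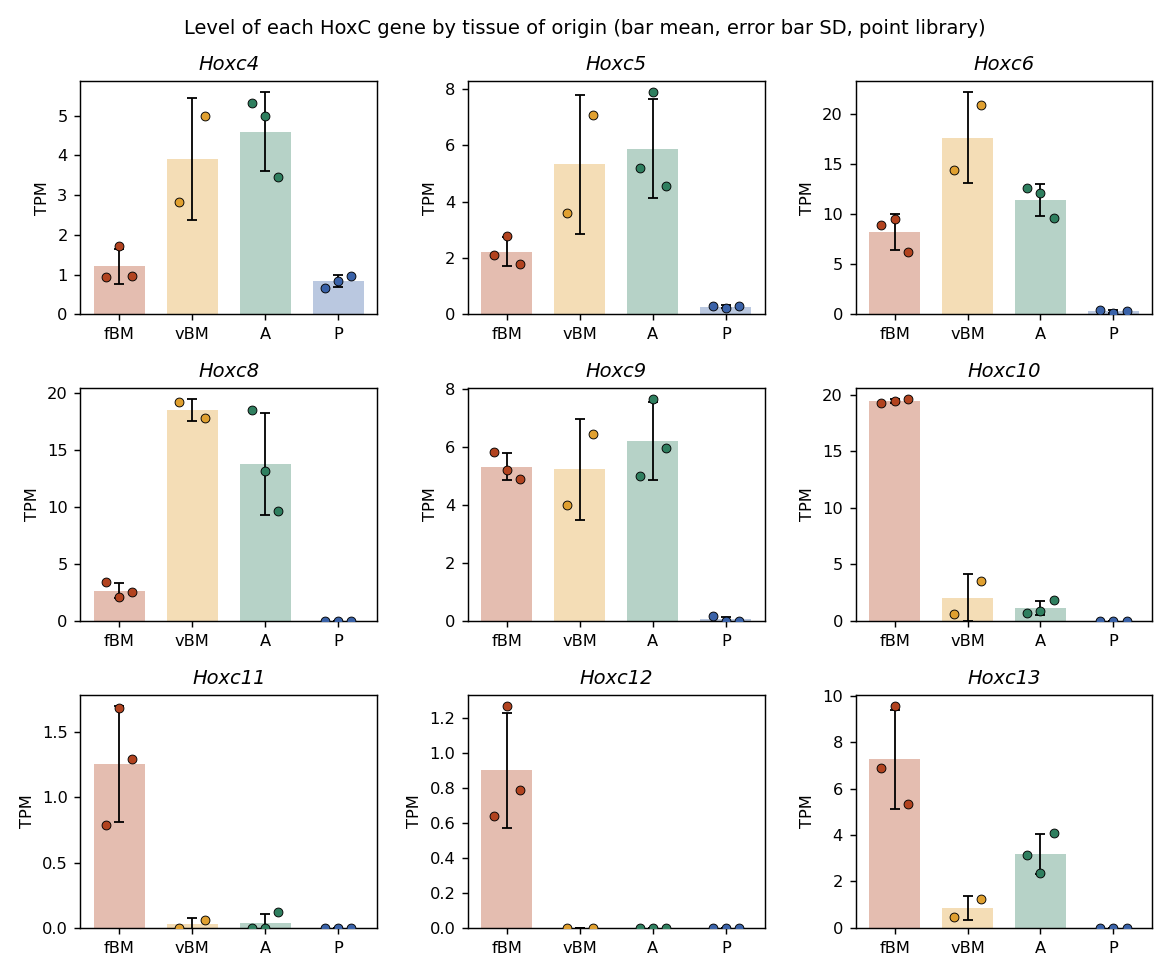
TPM (y axis) of each HoxC gene by tissue of origin (x axis); a point is a library, the bar the mean and the error bar the SD of 3 libraries (2 for vBM). Hoxc10 to Hoxc13 are highest in fBM, Hoxc4, Hoxc5, Hoxc6 and Hoxc8 in vBM or A, and the Hoxc9 points of the 3 overlap; y axes differ between panels.

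Of the 9 members, 7 passed the filter of a CPM (counts scaled to library size) of at least 1 in 2 libraries. All 7 differed among the 4 tissues, where 60.6% of all tested genes did. Between fBM-MSCs and vBM-MSCs 6 of the 7 were called, where 12.8% of all tested genes were. Of these, 2 were higher in fBM-MSCs (background 5.24%) and 4 lower (7.56%). Between fBM-MSCs and A-MSCs it was 5 of 7 (background 40.9%), 2 higher (20.6%) and 3 lower (20.3%) in the former. Between fBM-MSCs and P-MSCs it was 6 of 7, all higher in fBM-MSCs (47.7% in either direction and 24.7% in this). Both vBM-MSCs and A-MSCs exceeded P-MSCs in 7 of 7 (38.7% and 30.9%, or 21% and 16% in this direction). Between vBM-MSCs and A-MSCs 1 of 7 was called, Hoxc13, lower in vBM-MSCs (25.6%, and 12.4% in this direction).

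The comparison of the 2 bone marrow sites rested on few libraries. Of the 6 calls, those of Hoxc8 and Hoxc13 held under all 19 alternatives. Hoxc10 missed the threshold under 1 of them, a model of these 2 tissues by themselves (adjusted p = 0.0509). Hoxc4, Hoxc5 and Hoxc6 lost theirs there too, leaving 2 calls. Hoxc4 also lost its call without replicate 1 or 3 of the fBM-MSCs or replicate 2 of the vBM-MSCs, where 3 calls were left. Hoxc5 and Hoxc6 lost theirs without any 1 of the fBM-MSC libraries or without vBM-MSC replicate 2, and with the replicate number as a block. Hoxc5 did so too on log2(TPM + 0.1), without A-MSC replicate 1 and without any 1 of the P-MSC libraries, and Hoxc6 without vBM-MSC replicate 1, without any 1 of the A-MSC libraries and without P-MSC replicate 3. Their directions did not change under any alternative. Over the alternatives the adjusted p reached 0.149 for Hoxc4, 0.227 for Hoxc5 and 0.149 for Hoxc6.

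**Figure D3:**
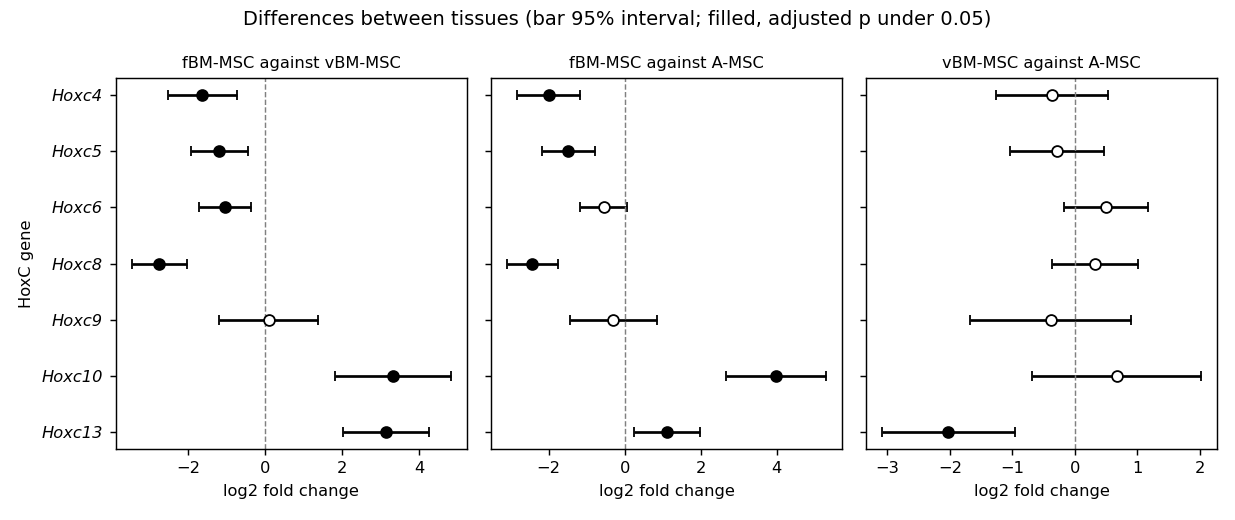
log2 fold change (x axis) of the 7 tested HoxC genes (y axis) between the 3 tissues that express the cluster, with 95% intervals; filled points have an adjusted p under 0.05. Against both vBM-MSCs and A-MSCs, Hoxc10 and Hoxc13 lie to the right (higher in fBM-MSCs) and Hoxc4, Hoxc5 and Hoxc8 to the left, and Hoxc9 is near 0; between vBM-MSCs and A-MSCs Hoxc13 alone is filled.

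Open chromatin over the cluster was read from the peak lists, in which each summit has a fold enrichment over the genome-wide background and a −log10 q. These come from pooled samples, so no replicate error is available and no test was made. At a −log10 q of at least 7, the study's own limit, the cluster and 10 kb on either side held 17 summits in the femoral list, 12 in the vertebral list, 16 in the adipose list and 2 in the lung list. This is 12.5, 8.84, 11.8 and 1.47 summits per 100 kb, where the whole lists held 2.61, 2.42, 2.90 and 2.60. At this limit the cluster was denser in summits than the genome in the 3 expressing tissues and sparser in the lung. With no limit the lung list was denser there too (5.16 against 4.08 per 100 kb), and at a −log10 q of at least 20 the vertebral list was sparser (0.737 against 0.943). Summits within 250 bp of the next were joined into sites, and 25 sites passed the limit in at least 1 list. Of these, 13 passed in 1 list only (6 in the femoral list, 4 in the adipose list, 2 in the vertebral list and 1 in the lung list), 6 in 2 lists, 5 in 3 and 1 in all 4.

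**Figure D4:**
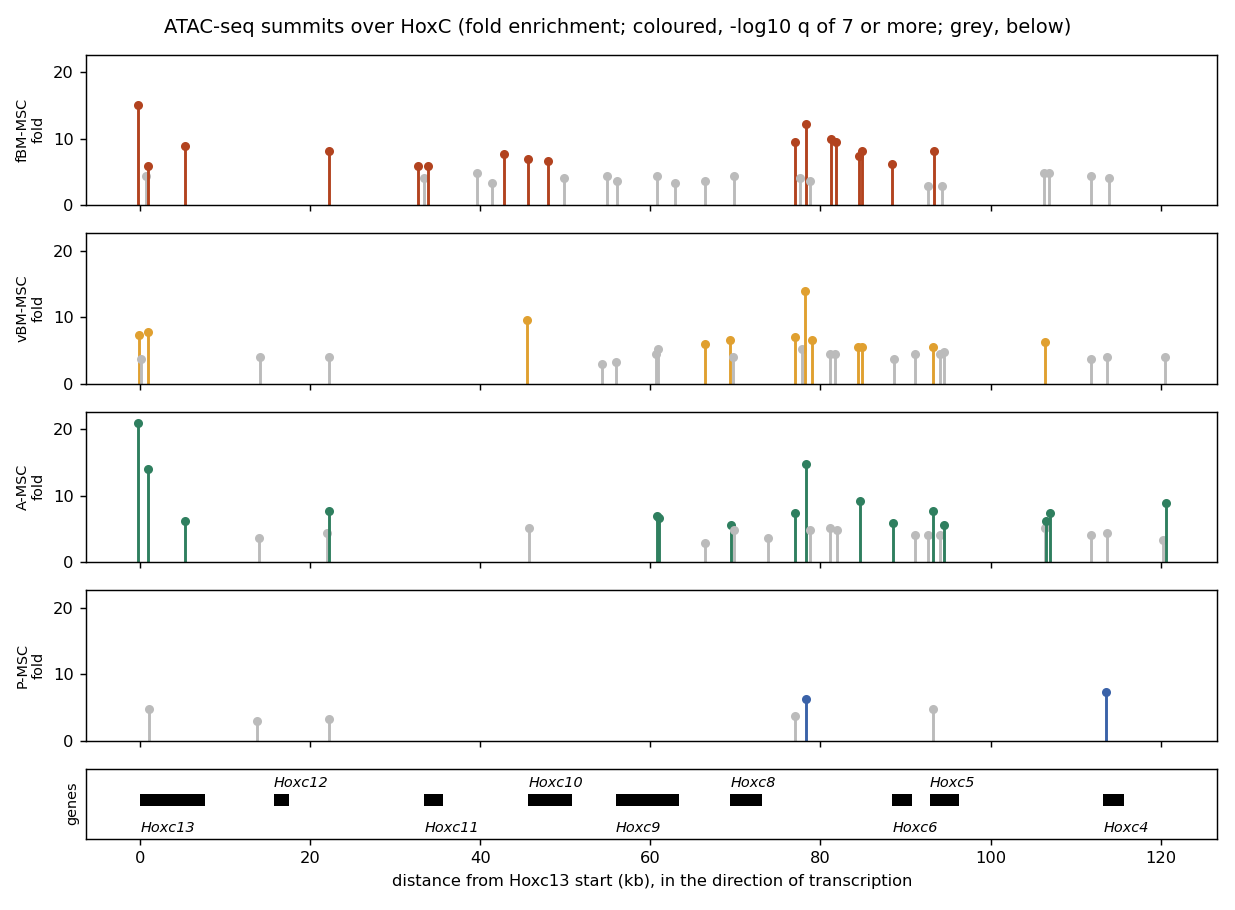
Fold enrichment (y axis) of ATAC-seq summits over HoxC against distance from the Hoxc13 start in kb (x axis), 1 panel per pooled tissue list, with the genes below; coloured summits have a −log10 q of at least 7, grey ones less. Over Hoxc11 and Hoxc10 and the stretch just upstream of each, the fBM-MSC panel has 5 coloured summits, the vBM-MSC panel 1 and the others 0, and the P-MSC panel has 2 coloured summits in all.

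The strongest site lay 279 bp upstream of the Hoxc13 start, in the first window printed above, which holds 1 RUNX match. Its fold enrichment was 15.1 in the femoral list, 7.36 in the vertebral list and 21.0 in the adipose list, and P-MSCs had no summit there. The adipose list was thus the highest at this site, while the TPM of Hoxc13 was highest in the femur. The site between the Hoxc8 and Hoxc6 transcripts, the last window printed, which lies in an intron of a longer predicted RefSeq model of Hoxc6, was the only one past the limit in all 4 lists, with a fold enrichment of 12.1, 14.0, 14.7 and 6.25 in fBM-MSCs, vBM-MSCs, A-MSCs and P-MSCs.

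Around Hoxc10 and Hoxc11, 4 of the 5 sites past the limit in fBM-MSCs were in no other list. One lay 758 bp upstream of Hoxc11 (fold enrichment 5.89) and one in its coding exon (5.89). Another lay 2919 bp upstream of Hoxc10 (7.73), and the last in the Hoxc10 intron, 2326 bp after the start (6.62), whose window holds 1 CTCF match. The other 3 lists had no summit of any q at these 4 places. The Hoxc10 promoter itself did not follow the TPM: its best summit had a fold enrichment of 6.99 in the femoral list, 9.57 in the vertebral list and 5.15 in the adipose list, the last with a −log10 q of 6.33, just under the limit.

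At the other end, the site 369 bp into Hoxc4, in its coding exon, had a fold enrichment of 7.36 in P-MSCs and 4.05, 4.05 and 4.41 in fBM-MSCs, vBM-MSCs and A-MSCs, where its −log10 q stayed under 7. It passed in the lung list only, and Hoxc4 was the member with the highest TPM in the lung. Across tissues, however, the mean TPM of Hoxc4 was lowest in the lung. It was 0.83 in P-MSCs and 1.21, 3.91 and 4.59 in fBM-MSCs, vBM-MSCs and A-MSCs. The site downstream of Hoxc4, 7370 bp after its start, had a fold enrichment of 8.83 in A-MSCs and 4.05 in vBM-MSCs, and no summit in the other lists. Its window holds 1 AP-1 match. Within 1 kb of the Hoxc8 start, the best summit had a fold enrichment of 6.62 in the vertebral list, 34 bp before the start. It was 5.52 in the adipose list and 4.41 in the femoral list, 117 bp and 442 bp after the start, and P-MSCs had none. The 4 lists stood in the order of the mean TPM of Hoxc8.

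A promoter was called open when a summit past the limit lay within 1 kb of the start. In fBM-MSCs 5 of the 9 promoters were open (Hoxc5, Hoxc6, Hoxc10, Hoxc11 and Hoxc13), in the vertebral list 4 (Hoxc5, Hoxc8, Hoxc10 and Hoxc13), in the adipose list 4 (Hoxc5, Hoxc6, Hoxc8 and Hoxc13) and in the lung list 1 (Hoxc4). Over all 23045 genes with a start on the listed chromosomes, between 52.0% and 54.0% were open. Among the genes with a mean TPM of at least 1, the share open was between 89.3% and 93.1%. Of the 21 pairs of a HoxC gene and a tissue with a mean TPM of at least 1, 12 were open, and 20 had a summit of any q. Hoxc9 was open in no list, with a mean TPM between 5.24 and 6.23 in 3 tissues, and Hoxc6 in vBM-MSCs, at 17.7 TPM, had a best summit of 3.68-fold and a −log10 q of 2.97 at the start used. RefSeq also holds longer predicted models of Hoxc6, the longest of which starts at 102998226. Near that start the best summit had a fold enrichment of 9.56 in the femoral list, 6.99 in the vertebral list, 7.36 in the adipose list and 3.68 in the lung list, the first 3 past the limit. With any RefSeq start counted, Hoxc6 was thus open in vBM-MSCs as well, and the open HoxC promoters came to 5, 5, 4 and 1 in the femoral, vertebral, adipose and lung lists. The 201-bp windows of the 47 summits past the limit held AP-1 in 12.8%, against 31.0% of the 256972 windows of all lists, and RUNX in 17.0% against 18.6%. CTCF, GATA and PITX were each in 2.13% (3.13%, 7.19% and 4.63% of all windows), posterior HOX in 8.51% (7.08%) and HOX with its cofactor in 0 (5.02%). Many of these windows overlap one another, as lists share sites.

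Genes beside the cluster were present in the lung as elsewhere. Smug1, a DNA repair glycosylase gene next to Hoxc4, had a mean TPM of 5.94 ± 0.08 (SD, n = 3) in the femoral libraries, 6.57 ± 1.97 (SD, n = 2) in the vertebral libraries, 6.97 ± 0.95 (SD, n = 3) in the adipose libraries and 5.57 ± 1.33 (SD, n = 3) in the lung libraries, and was called in none of the 6 comparisons. Atp5g2, an ATP synthase subunit gene on the Hoxc13 side, was called in none either. Its neighbour Calcoco1 was highest in fBM-MSCs (26.3 ± 3.79 TPM, SD, n = 3) and Cbx5, of heterochromatin, in P-MSCs (21.0 ± 0.64 TPM, SD, n = 3). Mean TPM was lowest in P-MSCs for Calcoco1 (9.79) and in fBM-MSCs for Cbx5 (7.56). Both were called in fBM-MSCs against vBM-MSCs and against A-MSCs. The log2 fold changes were 0.67 and 1.35 for Calcoco1 and −0.38 and −0.74 for Cbx5. Hotair, a long non-coding RNA antisense to the cluster between Hoxc12 and Hoxc11, had 52 counts in the femoral libraries, 0 in the vertebral libraries, 8 in the adipose libraries and 1 in the lung libraries. Smart-seq2 does not keep the strand, so reads of Hotair and of sense transcripts there cannot be told apart. The microRNA genes Mir196a-2 and Mir615 are listed at 0 in every library.

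The other clusters show what the lung lacked. In P-MSCs the summed TPM was between 39.4 and 47.2 for HoxA and between 56.7 and 65.7 for HoxB, but at most 0.19 for HoxD. By its sum, HoxC in the lung stood with HoxD, and HoxA and HoxB did not. Within HoxA, the genes of high number were near 0 in the lung as well, with a mean TPM of 0.13 for Hoxa9, 0.05 for Hoxa10, 0.0067 for Hoxa11 and 0 for Hoxa13. Hoxa13 had a mean TPM of at most 0.19 in any tissue. Within HoxB, Hoxb9 had a mean TPM of 2.49 in the lung libraries. It was 1.47, 14.1 and 5.54 in the femoral, vertebral and adipose libraries. Hoxb13 was low in every tissue, with its highest mean TPM, 0.25, in the lung. Of HoxD, 3 genes were tested, and all 3 were lower in the lung libraries than in each other tissue, where 24.7%, 21% and 16% of all tested genes were lower in the lung than in the femoral, vertebral and adipose libraries; Hoxd8 had a mean TPM of 2.48 in the femoral libraries and was 0 in the lung libraries. Of the 9 HoxA genes tested, 4 were called between fBM-MSCs and vBM-MSCs (12.8% of all tested genes), 1 higher (5.24%) and 3 lower (7.56%) in fBM-MSCs. Hoxa10, the HoxA relative of Hoxc10, was the higher one (3.42 on the log2 scale, SE 0.91, adjusted p = 0.0305), with a mean TPM of 23.0 in the femoral libraries, 2.33 in the vertebral libraries and 3.03 in the adipose libraries. Hoxa2, Hoxa3 and Hoxa5 were lower, by −4.81, −3.53 and −2.92. Of the 7 HoxB genes tested, 5 were lower in fBM-MSCs than in vBM-MSCs (7.56% of all tested genes) and 0 higher (5.24%), with Hoxb5 (−5.95) and Hoxb6 (−5.27) the furthest, and the median log2 fold change was −3.29, against 0.02 over all tested genes.

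Genes that act on Hox clusters were taken as lists. Of the 21 Polycomb genes, 12 were called between fBM-MSCs and P-MSCs, 4 higher and 8 lower in fBM-MSCs, beside 47.7% of all tested genes called, 24.7% higher and 23% lower. Cbx7, a subunit of Polycomb complex 1, was the called member with the largest change, 3.03 higher in fBM-MSCs on the log2 scale (SE 1.05, adjusted p = 0.0331, mean TPM 1.29 against 0.17). Next came a gene that was lower. Ezh2, the methyltransferase of Polycomb complex 2, had a mean TPM of 5.79 in the femoral libraries, 5.76 in the vertebral libraries, 12.8 in the adipose libraries and 43.6 in the lung libraries (fBM-MSCs over P-MSCs on the log2 scale, −2.79, SE 0.18, adjusted p = 6.31e-07). Of the 11 Trithorax genes and H3K27 demethylases, 6 were lower in fBM-MSCs than in P-MSCs and 0 higher, and of the 6 boundary factors, 5 were lower and 0 higher, against the same 23% and 24.7%, with Wdr5 (−1.27, SE 0.13) and Dpy30 (−1.16, SE 0.12) the furthest of the former and Rad21 (−1.20, SE 0.17) and Stag2 (−0.94, SE 0.20), both of cohesin, of the latter. Of the inducers of Hox genes, 3 were tested, and 2 were higher in fBM-MSCs than in P-MSCs, the retinoic acid receptor genes Rarb (3.52, SE 1.34, adjusted p = 0.0489) and Rarg (0.90, SE 0.18, adjusted p = 0.00154). Between fBM-MSCs and vBM-MSCs 1 of the 3 was called, Rara, which was lower in fBM-MSCs at −0.68 (SE 0.17, adjusted p = 0.0256, background 7.56%). The part of these genes in the HoxC levels was not tested.

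The profiles most like those of the 3 members with the highest mean TPM were sought by Pearson's r of log2(CPM + 1) over the 11 libraries, as a description. For Hoxc6 they included Pdlim4 (r = 0.988), Cyb5r1 (0.976), Sox9 (0.974) and Mff (0.973). For Hoxc8 they were S1pr3 (0.981), Ube2w (0.979), Kcnj15 (0.975), Rab33b (0.969) and Pmp22 (0.964), and for Hoxc10 Glmp (0.987), Tmem104 (0.982), Sqstm1 (0.979), Gimap6 (0.976) and Il7 (0.975). The libraries fall into 4 tissues, so each r rests mostly on the tissue means. Among the members, r was 0.954 between Hoxc5 and Hoxc8 and 0.854 between Hoxc10 and Hoxc13, but 0.173 between Hoxc8 and Hoxc10.

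The libraries held between 19569650 and 40517739 expected counts, with a median of 34414200. The positive flow cytometry markers of the study (Itgb1, Cd44, Ly6a and Vcam1) reached a TPM of 1 in every tissue, 4 of 4. Of the negative markers, Pecam1 and Ptprc were near 0 in fBM-MSCs, but Cd34 had between 10.2 and 79.2 TPM there. Cd34 had 7.33 and 7.46 TPM in the vertebral libraries, between 0.91 and 1.18 in the adipose libraries and between 1.69 and 5.15 in the lung libraries, and Pecam1 reached 3.84 in 1 adipose library. Of the 5 mesothelial genes listed, all 5 reached a TPM of 1 in A-MSCs, with a sum between 47.6 and 58.1, and 2 did in P-MSCs, with a sum between 54.0 and 62.9. The lung sum was mostly Krt19, a keratin (mean TPM 54.9), with Wt1 and Lrrn4 at 0 in every lung library. The sum was at most 11.1 in fBM-MSCs and 12.3 in vBM-MSCs, and Wt1 and Lrrn4 were at 0 there too. The summed skeletal muscle list, carried by Acta1, an actin gene, was between 9.37 and 20.5 in fBM-MSCs, 55.7 and 496 in the vertebral libraries, between 1035 and 1273 in A-MSCs and between 716 and 785 in P-MSCs, while Myod1, Myf5 and Pax7 were at 0 in every library. The sum of 5 endothelial genes was at most 0.16 in the femoral libraries and 0.75 in the vertebral libraries, between 3.12 and 54.9 in the adipose libraries and between 2.55 and 8.22 in the lung libraries. Of the 7 macrophage genes, 2 reached a TPM of 1 in the femoral libraries and 3 in each other tissue, with a sum between 36.2 and 49.4 in the femoral libraries, 21.8 and 42.6 in the vertebral libraries, between 16.2 and 25.1 in the adipose libraries and between 9.05 and 12.02 in the lung libraries. Itgam and C1qa were at 0 in both marrow tissues, and Cd68, a lysosomal gene of macrophages, was 3.06 higher in fBM-MSCs than in vBM-MSCs on the log2 scale (SE 0.50, adjusted p = 0.00305), the only call among the 3 macrophage genes tested there (5.24% of all tested genes were higher). Lyz2 and Csf1r had log2 fold changes of −0.03 and −0.24 (adjusted p = 0.967 and 0.693). Of the 7 mesenchymal genes at least 6 reached a TPM of 1 in each tissue, and of the 5 epithelial genes 0 did. The sum of 3 adipocyte genes was at most 2.32 in the femoral libraries and 4.24 in the vertebral libraries. It was between 0.4 and 17.4 in the adipose libraries and 0 in the lung libraries. That of 3 chondrocyte genes was 16.5 and 87.6 in the vertebral libraries. It was at most 12.8 in the femoral libraries, 10.8 in the adipose libraries and 7.14 in the lung libraries. The part of these markers in the HoxC levels was not tested.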

How the data were processed

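RNA-seq of 11 libraries and the peak lists of 4 tissues were used. The authors made Smart-seq2 libraries and ran RSEM with STAR against mm10. They deposited for each gene an expected count (RSEM's estimate, not normalized) and a TPM, scaled for effective length and to a fixed sum; the FPKM they deposited was not used. For ATAC-seq the authors trimmed reads, aligned them with Bowtie, used Picard against duplicates, corrected for the Tn5 offset and called peaks with MACS2 on pooled samples. Per summit, the deposited lists hold a ratio (fold enrichment), a −log10 p, a −log10 q and a score; only the ratio and the −log10 q were used. Software versions are not given in the sources used here.

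After rounding, the counts went into edgeR 4.0.16 in R 4.3.3 (TMM scaling; two-sided quasi-likelihood F test; Benjamini-Hochberg over the 12509 genes that reached a CPM of 1 in 2 libraries; threshold 0.05), in 1 model with tissue as the only term. The study describes the libraries of a tissue as biological replicates, with cells from 3 mice, and p-values measure the spread between them. Intervals of counts are exact (Clopper-Pearson), and folds against a tissue with no count use a floor of 3 counts over the group; both cover counting error only. Summits were set against the RefSeq transcripts of GRCm38 that the expression tables name, or, as an alternative chosen after the data were seen, against all RefSeq starts, and motifs searched on both strands within 100 bp of a summit; the CTCF letters were corrected after a first search. The genes named were the 9 members, other genes within the cluster, 2 neighbours on each side, 8 related lists with their members of largest change past the threshold, the lists of cell markers, and the 5 most similar profiles of the 3 highest members; 1 list, 1 of these profiles and 1 summit window are not reported here. Members, lists and motifs were chosen with earlier results of these data known. Alternatives were DESeq2 1.42.0, its size factors in edgeR, limma 3.58.1 on log2(TPM + 1) and log2(TPM + 0.1), other filters, the replicate block, models of 2 tissues, leaving out each library, and other peak thresholds. The tests were checked on simulated data. Python 3.11.15, pandas 2.3.3, scipy 1.17.1 and matplotlib 3.10.9 were used.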

Additional observations from a re-analysis of the deposited data

How the results depend on the processing

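The 42 log2 fold changes of a member between a pair of tissues were recomputed under the alternatives, 796 times in all (Hoxc10 and Hoxc13 had no value in a model of vBM-MSCs and P-MSCs alone, where they did not pass the filter): 759 kept their direction and their side of the threshold, 33 lost their call and 4 changed sign. None of those that changed sign was called. Without 1 library at a time, Hoxc9 between fBM-MSCs and vBM-MSCs ranged from −0.14 to 0.35 (below 0 without fBM-MSC replicate 1 or vBM-MSC replicate 1), Hoxc10 between vBM-MSCs and A-MSCs from −0.99 to 1.396 (below 0 without vBM-MSC replicate 2) and Hoxc5 in the same pair from −0.73 to 0.0598 (above 0 without vBM-MSC replicate 1). Leaving out 1 library gave between 3 and 5 called members between fBM-MSCs and vBM-MSCs, between 4 and 5 for fBM-MSCs and A-MSCs, and between 0 and 1 for vBM-MSCs and A-MSCs; the other 4 counts did not move. A model of the fBM-MSC and vBM-MSC libraries alone, with fewer libraries to estimate the spread, called 2. With the replicate number as a block, 4 members were called between fBM-MSCs and vBM-MSCs (without Hoxc5 and Hoxc6). Between fBM-MSCs and A-MSCs it was 4 as well (without Hoxc13). The correlation of same-numbered libraries, as deviations from their tissue means, was between −0.04 and 0.17 (median 0.04, 1 of 15 pairs over 0.1). For the 30 other pairs across tissues it was between −0.17 and 0.17 (median −0.02, 1 over 0.1). With so few libraries per tissue, these values cannot decide whether equal numbers mark the same mouse.

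The peak counts moved most with the q threshold. With no threshold, fBM-MSCs, vBM-MSCs, A-MSCs and P-MSCs held 36, 30, 32 and 7 summits and 8, 7, 6 and 3 open promoters. At a −log10 q of at least 20 they held 2, 1, 3 and 0 summits and 1, 0, 1 and 0 open promoters. The lung held the fewest summits at each threshold. Counting any RefSeq start, an alternative chosen after the data were seen, added 1 open promoter, Hoxc6 in vBM-MSCs. The depth of the pooled ATAC-seq samples is unknown, and with 2 vBM-MSC libraries, differences that miss the threshold there are not shown to be absent.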
